A study of Mus musculus with 62 samples.

Results

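The oxidative phosphorylation genes described here were 99 nuclear, protein-coding genes of the 48795 genes in the count table. They were taken by symbol: the *Nduf* genes, *Sdha* to *Sdhd*, the *Uqcr* and *Uqcc* genes, *Cyc1*, *Cycs*, the *Cox4* to *Cox8* genes and the *Atp5* genes under old or new names. By complex they were 36 subunits of complex I, 4 of complex II, 9 of complex III, cytochrome c (*Cycs*), 17 of complex IV, 17 of complex V and 15 assembly or regulatory genes, so that 84 of the 99 were counted as subunits. *Usmg5*, *Atpif1* and *Dmac2*, 3 of the 99, were matched through another name of the gene. *Cox7a1* and *Cox8b*, the 2 complex IV subunits of thermogenic fat and muscle, were set aside by the rule, and 11 processed pseudogenes with such symbols were left out. The set was chosen in part on measured values, the differences between KO and WT fat in these libraries, so the genotype values of fat given below are a description and not evidence for a difference.

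The respiratory chain sits in the inner mitochondrial membrane. Complexes I and II pass electrons from NADH and succinate to ubiquinone, complex III passes them on to cytochrome c, and complex IV passes them to oxygen. Complex V, the ATP synthase, makes ATP from the proton gradient that complexes I, III and IV build up. Complex II also belongs to the citric acid cycle and is the only complex with no subunit encoded in the mitochondrial genome. In white fat the chain serves lipid synthesis and storage more than heat production, and in liver it serves fatty acid oxidation and gluconeogenesis.

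RNA was sequenced from SAT (inguinal fat), VAT (gonadal fat) and liver of *Fam13a* WT and KO males, either on chow or on HFD, and from both fat depots of WT and KO females, on HFD only. This made 16 groups, of which 14 held 4 libraries and the WT female SAT and VAT groups held 3, which made 62 libraries. All mice were on a C57BL6 background, and the KO mice derived from ES cells carrying loxP sites around 1 exon of *Fam13a* and lacked it in the whole body. The driver that removed the exon is not given in the sources used here. The labels give no ages, and they do not link the tissues of 1 mouse. By the paper, HFD began at 8 weeks of age and lasted 14 weeks. The paper gives no age for the chow mice whose RNA was sequenced, so whether age differed between the diets is not known. Diet cannot be told apart from sequencing lane, because chow libraries were on lanes 1 to 3 and HFD libraries on lanes 4 to 8, apart from 2 HFD libraries on another flow cell. Sex in fat cannot be told apart from lane either, since female libraries were on lanes 6 to 8 and male fat on HFD on lanes 4 and 5 or that flow cell. On chow the tissues had a lane each (VAT 1, SAT 2, liver 3). On HFD, apart from that flow cell, male VAT was on lane 4 and male SAT on lane 5, with 1 SAT library on lane 4. Liver on HFD was on lane 6, with 1 library on lane 8. Tissue thus went with lane on both diets, with few exceptions.

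Total counts were between 4959783 and 28723319 per library, and ribosomal RNA took 0.0127% to 75.4% of them. *Fam13a* itself stood at 54.5 to 282 CPM (the count's share of its library, with library sizes scaled by TMM) in WT SAT and 26.1 to 185 CPM in KO SAT. In VAT it stood at 12.4 to 754 CPM in WT and 11.2 to 285 CPM in KO, and in liver at 36.0 to 82.8 CPM in WT and 16.2 to 63.7 CPM in KO. These gene counts hold every exon, also those outside the deleted one, so they do not check the genotype labels. Adipocyte markers (mean log2 CPM of 5 genes) were 8.0 to 10.2 in SAT and 7.72 to 10.2 in VAT against at most 0.494 in liver, and the 5 hepatocyte markers were at least 12.1 in liver against at most 4.16 in fat. Markers of other tissues stood out in some libraries. The 6 lymph node markers were at 4.15 to 6.01 in 7 of the 23 SAT libraries (all 4 WT on chow, KO replicate 4 on chow, male WT replicate 2 and female KO replicate 2 on HFD) and at -2.09 to 1.21 in the other 16. Epididymis or testis markers were above 2 in 4 VAT libraries, skeletal muscle markers above 6 in 3 SAT libraries, and ribosomal RNA above 30% in 5 libraries. Counts that rest on such libraries are given with and without them.

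The starts of these genes carried letters of the NRF1 and YY1 motifs, of factors that drive mitochondrial genes, more often than the starts of genes at large. RefSeq sequence (GRCm38.p6) from 250 bases before to 50 bases after the start was at hand for 81 of the 99 genes. The letters GCGCATGC, the core of the NRF1 motif, were present on either strand in 13 of the 81 (16%). Of all 27025 genes with such a sequence, 3.05% carried them. These 27025 genes were not limited to the count table or to protein-coding genes. The letters AAGATGGC, the core of the YY1 motif, were present in 13 (16%), against 3.19%. The GABPA motif core CCGGAAGT was present in 5 (6.17%, against 4.31%), near the share of all genes. TCAAGGTCA, the ERRA motif core, was present in only 2 (2.47%, against 0.47%). At least 1 of the 4 was present in 32 of the 81 (39.5%), against 10.4% of all genes with a sequence. YY1 letters were found in 7 of 32 complex I genes and in 3 of 15 complex V genes, and in 0 of the 5 complex III and 11 complex IV genes with a sequence. A match is a description of the letters and not evidence of binding.

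The starts of 4 genes that the results below return to are printed because all 4 carry the NRF1 letters, in capitals, and the 4 genes differ in role: cytochrome c, a complex III core protein, a complex I accessory subunit and a complex I assembly factor. Each runs 5′ to 3′ on the strand of its gene in GRCm38.p6, with the gene start at base 251. The *Cycs* start is chr6:50566520-50566819 (minus strand), *Uqcrc1* chr9:108936398-108936697 (plus), *Ndufa11* chr17:56717512-56717811 (plus) and *Ndufaf4* chr4:24897833-24898132 (plus).
Cycs: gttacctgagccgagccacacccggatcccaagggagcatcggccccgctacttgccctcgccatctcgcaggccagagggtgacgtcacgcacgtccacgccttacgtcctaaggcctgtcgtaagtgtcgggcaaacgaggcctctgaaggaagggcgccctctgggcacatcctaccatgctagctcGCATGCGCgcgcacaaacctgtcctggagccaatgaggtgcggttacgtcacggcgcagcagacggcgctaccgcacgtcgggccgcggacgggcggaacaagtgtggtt
Uqcrc1: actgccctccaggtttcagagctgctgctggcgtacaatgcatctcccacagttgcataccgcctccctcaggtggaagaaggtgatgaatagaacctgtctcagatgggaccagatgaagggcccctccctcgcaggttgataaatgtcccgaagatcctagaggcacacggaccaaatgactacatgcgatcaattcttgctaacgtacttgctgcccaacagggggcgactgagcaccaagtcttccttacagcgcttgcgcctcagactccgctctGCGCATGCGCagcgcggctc
Ndufa11: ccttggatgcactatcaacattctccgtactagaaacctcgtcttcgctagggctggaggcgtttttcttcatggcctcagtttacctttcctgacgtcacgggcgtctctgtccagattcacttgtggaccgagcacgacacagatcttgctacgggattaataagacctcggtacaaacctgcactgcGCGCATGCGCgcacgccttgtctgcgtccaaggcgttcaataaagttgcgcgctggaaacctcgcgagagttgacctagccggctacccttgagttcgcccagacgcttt
Ndufaf4: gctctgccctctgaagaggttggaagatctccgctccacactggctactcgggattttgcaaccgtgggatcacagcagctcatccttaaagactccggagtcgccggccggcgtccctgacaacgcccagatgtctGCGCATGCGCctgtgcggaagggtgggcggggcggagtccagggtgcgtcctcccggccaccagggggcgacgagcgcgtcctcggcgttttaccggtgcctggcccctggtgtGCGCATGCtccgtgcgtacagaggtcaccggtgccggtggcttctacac
The NRF1 letters begin 60 bases before the start in *Cycs* and *Ndufa11*, 113 bases before it and again 1 base after it in *Ndufaf4*, and 30 bases after it in *Uqcrc1*. In *Cycs* they are read on the other strand. In *Uqcrc1*, in *Ndufa11* and at the first place in *Ndufaf4* the letters of both strands overlap, so the capitals run longer there.

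In counts per length of all annotated exons merged, the complexes stood in the same order in the 3 tissues. TPM (counts per exon length, as a share over protein-coding genes) were averaged over the 16 male libraries of each tissue, and the median over the members of a complex was taken. Complex III stood highest, at 309 TPM in SAT, 278 in VAT and 278 in liver. Complex II followed at 275, 244 and 248 TPM, complex V at 162, 149 and 149 TPM, complex IV at 153, 140 and 147 TPM, and complex I at 117, 109 and 110 TPM. *Cycs* stood at 64.6 ± 18.7 TPM (SD, n = 16) in SAT, 59.9 ± 16.8 in VAT and 49.0 ± 12.1 in liver. The assembly and regulatory genes were lower still, with medians of 26.5, 25.8 and 19.5 TPM. Over single libraries the median of complex I ran from 84.9 to 149 TPM, that of complex IV from 94.6 to 202, complex V from 114 to 206, complex II from 167 to 341 and complex III from 196 to 403 TPM. Neighbours in this order thus overlapped, and over all libraries only complex I lay wholly below complexes II and III.

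The most abundant single transcripts in SAT were *Cox8a*, a small complex IV subunit, at 1289 ± 375 TPM (SD, n = 16), and *Atp5b* and *Atp5a1*, subunits of the catalytic part of complex V, at 1174 ± 280 and 992 ± 224 TPM. In liver, *Atp5a1* (937 ± 113 TPM) and *Atp5b* (695 ± 31.4 TPM) stood first, and *Cox8a* was at 522 ± 70.6 TPM. *Sdhd*, a membrane anchor of complex II, stood at 526 ± 69.2 TPM in liver, 372 ± 38.4 in SAT and 352 ± 41.0 in VAT. *Ndufb2* (7.87 TPM in SAT) and *Atp5l* (4.66 TPM) stood lowest of complexes I and V. Their merged exons were long, 5628 and 6443 bases against 619 for *Cox8a*. Exons not in the transcript in use lower the TPM, so the order of single genes is uncertain. In raw counts over all libraries these genes were lowest of their complexes too, with medians of 140.5 and 92.5. STAR counts only reads that map to 1 place, and pseudogenes of *Atp5l* are in the same table, so the levels of genes with processed copies are uncertain.

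Paralog pairs divided by tissue. The 3 genes for the same c subunit of complex V, *Atp5g1*, *Atp5g2* and *Atp5g3*, stood at 15.2 ± 3.76, 29.1 ± 3.13 and 301 ± 57.5 TPM in SAT (SD, n = 16) and at 35.5 ± 5.5, 23.2 ± 3.13 and 295 ± 22.7 TPM in liver, so *Atp5g3* carried most of the total in both. With merged exons of 4912 bases the TPM of *Atp5g1* may be too low. Its median count over all libraries, 300, also lay below that of *Atp5g3*, 2349.5. *Cox4i2*, the hypoxia-inducible form of the regulatory subunit, stood at 10.3 ± 4.78 TPM in SAT and 5.37 ± 2.31 in VAT and at most 0.563 TPM in liver, where *Cox4i1* was at 475 ± 50.2 TPM. *Ndufa4l2*, the hypoxia-inducible relative of *Ndufa4*, stood at 21.6 ± 10.6, 14.9 ± 6.72 and 1.28 ± 0.676 TPM in SAT, VAT and liver, and *Ndufa4* at 456 ± 90.0, 403 ± 90.7 and 453 ± 45.0 TPM. *Atpif1*, the inhibitor of ATP hydrolysis by complex V, stood at 112 ± 52.2 TPM in VAT, 64.9 ± 14.3 in SAT and 16.4 ± 3.84 in liver.

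The muscle and testis forms of complex IV were near 0 outside a few libraries. *Cox7b2* had 594 counts in VAT of male WT replicate 4 on HFD, 68 in VAT of male KO replicate 4 on chow and at most 2 in each of the other 60 libraries. *Cox8c* had 549 and 62 counts in the same libraries and at most 5 elsewhere, and *Cox6b2* had 584 and 70 there and at most 52 elsewhere. These 2 libraries are among the 4 with epididymis or testis markers above 2. *Cox6a2*, the heart and muscle form of *Cox6a1*, had 267 counts in SAT of male KO replicate 1 on chow, 112 in SAT of female WT replicate 2 and 102 in SAT of male WT replicate 4 on HFD, which are the 3 libraries with muscle markers above 6.

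**Figure D1:**
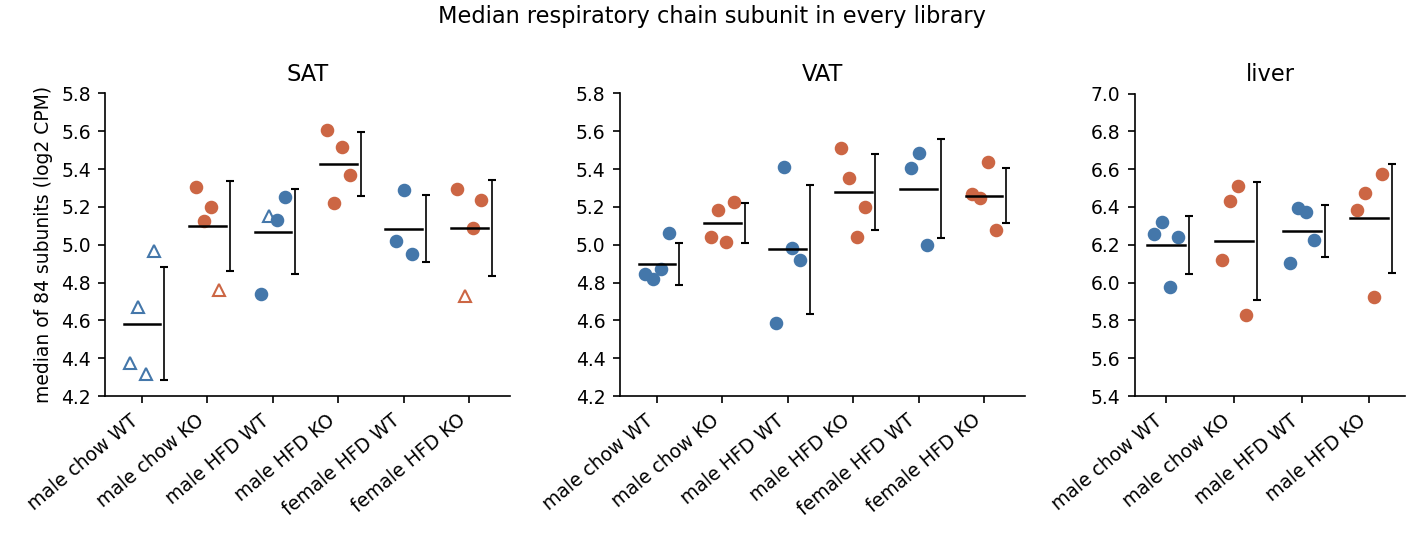
The median log2 CPM over the 84 subunits (vertical axis, with another range for liver) is plotted for each of the 62 libraries by group, in blue for WT and orange for KO, with the group mean (line) and SD (bar beside it), and open triangles for the 7 SAT libraries with lymph node markers. The 16 liver libraries sit at 5.83 to 6.58 and the 46 fat libraries at 4.32 to 5.61, and the lowest group mean is that of male WT SAT on chow, 4.58.

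HFD against chow was compared in males within each tissue, with genotype as a covariate. In SAT, 66 of the 96 members tested were higher and 2 were lower on HFD at the FDR of 10%, where 28.5% of all 17292 genes tested were higher and 29.6% lower (58% called). Every complex took part: 28 of 36 complex I subunits, 3 of 4 of complex II, 6 of 9 of complex III, *Cycs*, 12 of 14 of complex IV and 12 of 17 of complex V were higher, and no subunit was lower. The median log2 fold change of the members was 0.39, against -0.02 for all genes. Of the 15 assembly and regulatory genes, 4 were higher (among them *Atpif1*, *Ndufaf3* and *Uqcc2*) and 2 lower (*Ndufaf4* and *Dmac2*).

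*Ndufb3*, an accessory subunit of the membrane arm of complex I, had the smallest p of complex I in SAT. In WT males it stood at 12, 14.9, 15.1 and 20.7 CPM on chow and at 27.3, 36.6, 34.7 and 37.7 CPM on HFD. In KO males it stood at 30.8, 29.3, 28.5 and 23.5 CPM on chow and at 53.2, 40.8, 56.2 and 47.1 CPM on HFD. The diets did not overlap within either genotype, but KO libraries on chow overlapped WT libraries on HFD. Between the diets it differed by 0.98 ± 0.12 (log2 fold change ± standard error, adjusted p = 4.95e-05, edgeR's quasi-likelihood test). *Ndufb7* (0.68 ± 0.10) and *Ndufa11* (0.78 ± 0.12) had the next smallest p.

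In complex II, *Sdhc* (0.76 ± 0.12), *Sdhd* (0.40 ± 0.09) and *Sdhb* (0.29 ± 0.11) were higher on HFD in SAT, whereas *Sdha*, the catalytic flavoprotein, was at 0.13 ± 0.12 and did not pass. In complex III, the core protein *Uqcrc1* stood at 51.3, 45.3, 45.0 and 55.9 CPM in WT on chow and at 74.7, 100, 90.1 and 100 CPM in WT on HFD. In KO, *Uqcrc1* stood at 101, 86.9, 84.6 and 56.9 CPM on chow and at 135, 105, 124 and 101 CPM on HFD. WT on chow was thus the low group, and KO replicate 4 on chow, which carried lymph node markers too, was the lowest KO library. The log2 fold change of *Uqcrc1* was 0.71 ± 0.12, that of cytochrome c1 (*Cyc1*) 0.68 ± 0.14 and that of *Uqcrq* 0.72 ± 0.15.

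*Cycs*, the mobile electron carrier, stood at 15, 14.5, 15 and 23.5 CPM in WT SAT on chow and at 20.9, 29.7, 27.3 and 32.6 CPM on HFD. In KO it stood at 30.5, 23, 38.0 and 25.6 CPM on chow and at 46, 37.3, 46.3 and 44.1 CPM on HFD. The diets overlapped in WT, through replicate 4 on chow and replicate 1 on HFD, and by a narrow margin in KO, where the highest chow library stood at 38.0 CPM and the lowest HFD library at 37.3 CPM. *Cycs* was higher on HFD by 0.65 ± 0.13 (adjusted p = 0.00134). Of complex IV, *Cox6a1* (0.78 ± 0.17), *Cox6b1* (0.67 ± 0.13), *Cox7c* (0.49 ± 0.11) and *Cox4i1* (0.46 ± 0.13) were higher, and the relatives *Ndufa4l2* (1.44 ± 0.33) and *Cox4i2* (0.98 ± 0.31) rose more than *Ndufa4* (0.45 ± 0.16) and *Cox4i1*, a difference that was not tested. Of complex V, *Atp5o* (0.81 ± 0.14), *Atp5a1* (0.68 ± 0.14), *Atp5d* (0.57 ± 0.12) and *Atp5g3* (0.54 ± 0.12) were higher, and *Atp5g1* (0.29 ± 0.18) and *Atp5g2* (0.13 ± 0.09) did not pass. *Atpif1* stood at 6.78 to 11.9 CPM in the 8 chow libraries and 10.6 to 18.6 CPM in the 8 HFD libraries of male SAT (0.63 ± 0.12).

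**Figure D2:**
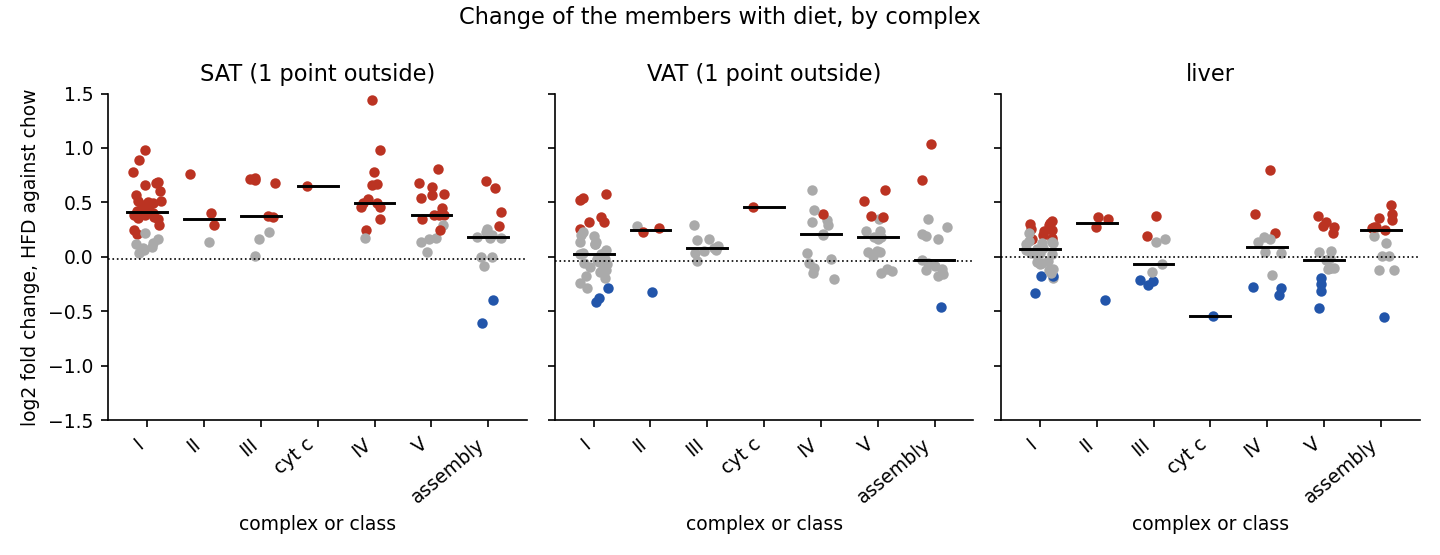
The log2 fold change of each member tested (HFD against chow in males, vertical axis) is plotted by complex or class in SAT, VAT and liver, in red where called higher, blue where called lower and grey where not called, with the median of each class (line), the median of all genes (dotted line) and *Cox6a2* outside the axis in SAT and VAT. The medians of the 5 complexes lie between 0.35 and 0.50 in SAT, between 0.02 and 0.25 in VAT, and between -0.07 and 0.31 in liver.

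The SAT counts moved with lymph node markers. All 6 of those markers were lower on HFD, by -2.78 to -3.88 on the log2 scale, and all 4 WT libraries on chow carried them (scores of 4.15 to 6.01). Left out were those 4, KO replicate 4 on chow and WT replicate 2 on HFD. With no WT library on chow left, the diet effect then came from the KO libraries alone. In the 10 male libraries that remained (3 KO on chow, 3 WT and 4 KO on HFD), 9 of 96 members were higher and 1 was lower, where 12.8% of all genes were higher and 12% lower in the same fit, and the median of the members minus that of all genes fell from 0.40 to 0.14. The 9 were *Ndufb3* (0.73), *Ndufb6*, *Ndufa11*, *Ndufb7*, *Ndufa8*, *Ndufs8*, *Sdhc*, *Cycs* (0.50) and *Atpif1* (0.82), chosen for naming after these values were seen. The 1 lower was *Cox6a2*, and all 6 skeletal muscle markers were lower too in those libraries. With the lymph node score as a covariate, 24 were higher and 1 lower (14.9% and 10.4% of all genes). Within KO males alone, which adds only KO replicate 4 on chow to those KO libraries, 9 were higher and 1 lower (8.19% and 8.02% of all genes). The 5 hepatocyte markers (5 higher, scores of -1.82 to 0.831 on chow and -1.13 to 3.81 on HFD) and the macrophage markers (4 of 5 higher) also moved with diet in SAT, and their part was not tested. In bulk tissue, fewer cells of a type and less RNA per cell cannot be told apart.

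**Figure D3:**
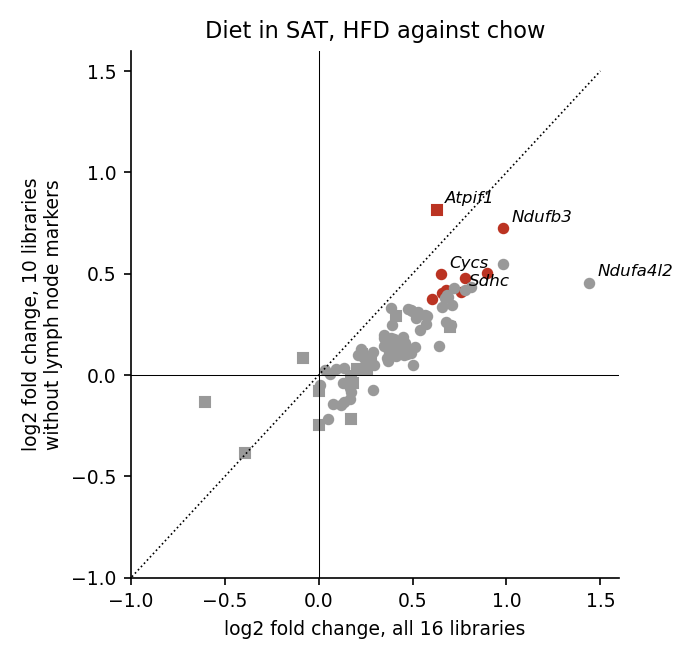
The log2 fold change of each member in SAT (HFD against chow) without the libraries with lymph node markers (vertical axis, 10 libraries) is plotted against that over all 16 male libraries (horizontal axis), with squares for assembly or regulatory genes, red where still called without those libraries, a dotted line of equal values, and *Cox6a2* outside the axes. Most points lie below the line of equal values, as *Ndufb3* does (0.73 against 0.98), whereas *Atpif1* lies above it (0.82 against 0.63).

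In VAT, fewer members were called than over all male SAT libraries. On HFD, 18 of 97 members were higher and 5 lower, where 21% of all genes were higher and 23.2% lower. With scaling by library size only, 34 were higher and 2 lower, where 24.4% and 16.6% of all genes were. Complex I had 7 higher and 3 lower of 36, complex III had 0 of 9, complex IV had 2 higher of 15 and complex V had 4 higher of 17. Differences between the complexes were not tested. *Ndufs8* (0.54 ± 0.13), *Ndufa11* (0.52 ± 0.14) and *Ndufb3* (0.58 ± 0.16), all complex I, *Cox7c* (0.39 ± 0.15) of complex IV, and *Atp5mpl* (0.62 ± 0.13), *Atp5e* (0.51 ± 0.11) and *Atp5o* (0.37 ± 0.13) of complex V were higher. Within complex II, *Sdhd* (0.23 ± 0.09) and *Sdhc* (0.26 ± 0.12) were higher and *Sdha* lower (-0.33 ± 0.15), and *Sdhb* (0.28 ± 0.15) did not pass.

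*Cycs* in VAT stood at 19.1, 18.1, 21.5 and 21.5 CPM in WT and 33.4, 26.0, 23.7 and 29.3 CPM in KO on chow. On HFD it stood at 15.2, 43.3, 31.5 and 24.4 CPM in WT and 48, 43.0, 30.9 and 34.9 CPM in KO. The diets overlapped in both genotypes. WT replicate 1 on HFD, the lowest of the 16, also had ribosomal RNA above 30% and came from the other flow cell. *Cycs* was higher on HFD by 0.46 ± 0.16 (adjusted p = 0.0381). *Uqcc3*, an assembly factor of complex III, went the other way, from 7.82 to 10.5 CPM in the 8 chow libraries to 5.85 to 7.76 CPM in the 8 HFD libraries, with no overlap (-0.46 ± 0.10, adjusted p = 0.00194). *Atpif1* stood at 7.97, 15.6, 6.01 and 11 CPM in WT on chow, 39.2, 18, 10.2 and 13.5 in KO on chow, 22.8, 31.6, 38.3 and 33.8 in WT on HFD and 26.8, 30.1, 32.5 and 26.9 in KO on HFD (1.04 ± 0.29). KO replicate 1 on chow, at 39.2 CPM, stood above every HFD library, and it was 1 of the 4 VAT libraries with epididymis or testis markers. *Uqcc2*, a further complex III assembly factor, was higher at 0.70 ± 0.30. *Cox6a2* passed the test at 0 to 0.127 CPM on chow and 0 to 1.22 CPM on HFD, levels too low for a fold change.

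Macrophage markers rose in all 5 genes in VAT on HFD, from scores of 4.18 to 6.18 on chow to 6.98 to 8.84, and adipocyte markers stood at 8.66 to 9.93 on chow and 7.72 to 9.17 on HFD. With the macrophage score as a covariate, 0 members were called, but so were 0 of all genes, and the scores of the diets did not overlap. With the adipocyte score as a covariate, 24 members were higher and 1 lower. Without the 4 libraries with epididymis or testis markers, 16 were higher and 5 lower, and without those above 30% ribosomal RNA 26 were called. For the fit with the adipocyte score and those that left libraries out, the shares of all genes are not given here. Their counts thus do not set the members against genes at large.

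In liver, 31 of 94 members were higher and 16 lower on HFD, where 20.6% of all genes were higher and 20.2% lower, and members of 1 complex moved in opposite directions. With scaling by library size only, 51 were higher and 10 lower, where 28.6% and 11.9% of all genes were. Complex II showed this most plainly. *Sdhd* stood at 295, 247, 246 and 234 CPM in WT and 224, 253, 295 and 212 in KO on chow, and at 174, 227, 203 and 196 in WT and 215, 210, 154 and 228 in KO on HFD. *Sdhc*, the other membrane anchor, stood at 108, 117, 89.6 and 114 CPM in WT and 98.2, 128, 131 and 94.3 in KO on chow, and at 130, 161, 152 and 147 in WT and 148, 165, 115 and 174 in KO on HFD. Thus *Sdhd* fell (-0.39 ± 0.07, adjusted p = 0.000189), while *Sdhc* (0.37 ± 0.06), *Sdha* (0.34 ± 0.07) and *Sdhb* (0.27 ± 0.06) rose. *Sdha* stood at 288 to 458 CPM in the 8 chow libraries and 396 to 549 CPM in the 8 HFD libraries.

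The ratio of *Sdhd* to *Sdhc* within a library does not depend on the scaling between libraries. In liver it ran from 1.97 to 2.75 over the 8 chow libraries and from 1.27 to 1.46 over the 8 HFD libraries, with no overlap. In SAT the ratio ran from 0.954 to 1.44 on chow and 0.856 to 1.07 on HFD, and in VAT from 0.886 to 1.24 and 0.896 to 1.05, with overlap in both. This pair was chosen after its values were seen, and the ratio was not tested.

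**Figure D4:**
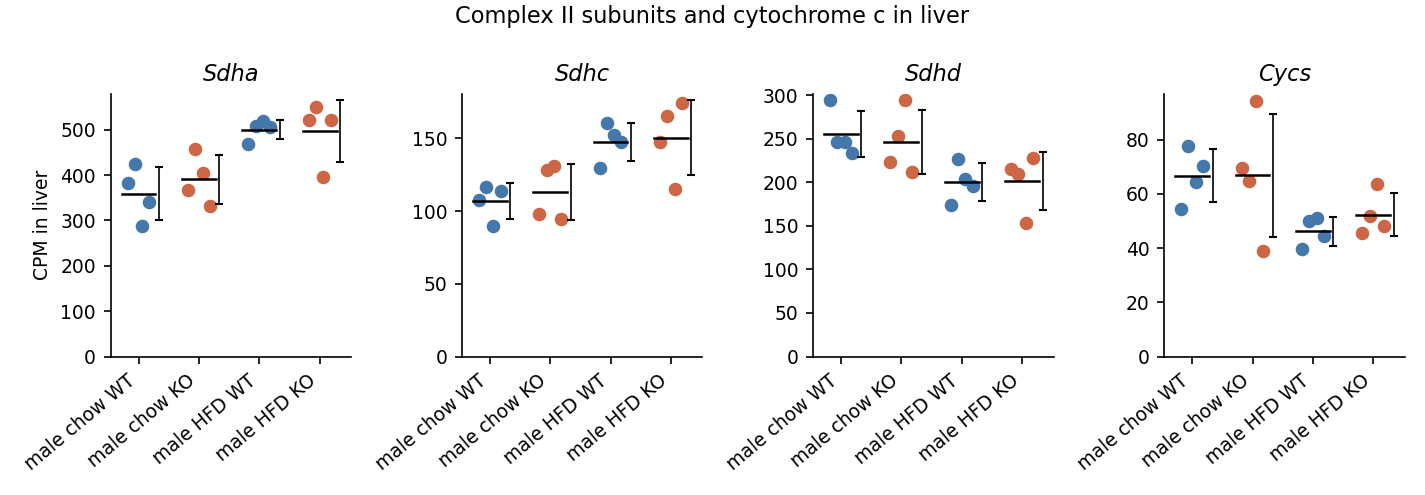
CPM (vertical axes, from 0) of *Sdha*, *Sdhc*, *Sdhd* and *Cycs* is plotted for each of the 16 male liver libraries by diet and genotype, in blue for WT and orange for KO, with the group mean (line) and SD (bar beside it). *Sdha* and *Sdhc* have higher group means on HFD, whereas *Sdhd* sits at 212 to 295 CPM on chow and 154 to 228 CPM on HFD, and *Cycs* has lower group means on HFD.

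*Cycs* also fell in liver. It stood at 54.6, 77.5, 64.4 and 70.2 CPM in WT and 69.3, 64.9, 94.2 and 38.9 in KO on chow, and at 39.5, 49.9, 51.1 and 44.4 in WT and 45.5, 51.8, 63.7 and 48.1 in KO on HFD. The diets did not overlap in WT, and in KO they overlapped only through the chow library at 38.9 CPM. That library and the highest HFD library of KO, at 63.7 CPM, had ribosomal RNA above 30%. The difference was -0.55 ± 0.13 (adjusted p = 0.00335). Without the 3 liver libraries above 30% ribosomal RNA, 50 members were called in liver, against 47 with them. The share of all genes in the fit without them is not given here.

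The other complexes in liver were mixed as well. Complex I had 10 higher, led by *Ndufb8* (0.30 ± 0.07), *Ndufa10* (0.33 ± 0.07) and *Ndufv3* (0.31 ± 0.07), and 3 lower, among them *Ndufs4* (-0.33 ± 0.08). In complex III, *Uqcrc1* was higher (0.37 ± 0.07) and *Uqcrh*, the hinge protein, lower (-0.26 ± 0.07). In complex IV, *Cox6a1* (0.39 ± 0.08) was higher and *Cox7a2* (-0.35 ± 0.09) and *Ndufa4* (-0.29 ± 0.08) lower, and *Ndufa4l2* rose by 0.80 ± 0.29 from a low level. In complex V, *Atp5d* (0.37 ± 0.07), *Atp5e* (0.32 ± 0.10) and *Atp5g1* (0.28 ± 0.08) were higher. *Usmg5*, a small membrane subunit of complex V, fell from 52.6, 55.4, 47.0 and 53.8 CPM in WT and 48.9, 47.6, 65.9 and 35.1 in KO on chow to 32.2, 43.8, 39.4 and 32.4 in WT and 41.7, 41.8, 31.3 and 46.6 in KO on HFD (-0.47 ± 0.09, adjusted p = 0.000584). Of the 15 assembly and regulatory genes, 8 were higher, among them *Uqcc2* (0.48 ± 0.09), *Uqcc1* (0.27 ± 0.07) and *Atpif1* (0.35 ± 0.12), and 1, *Atp5s*, was lower (-0.55 ± 0.14).

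The difference of the diet effect between tissues was tested over the 48 male libraries. The diet effect was lower in VAT than in SAT for 36 members and higher for 2 of 97, where 19.1% of all genes were lower and 17.8% higher. Examples are *Cox8a* (-0.85 ± 0.23), *Cox6a1* (-0.82 ± 0.21), *Ndufv1* (-0.77 ± 0.17), *Atp5b* (-0.77 ± 0.20), *Ndufb7* (-0.64 ± 0.16) and *Cyc1* (-0.59 ± 0.19). Without the 6 male SAT libraries with lymph node markers, 2 members of 97 differed, both higher in VAT, in place of 38, and the shares of all genes fell too, to 6.07% higher and 3.71% lower. The median difference minus that of all genes then went from -0.24 to 0.12. No WT SAT library on chow was left there, so in SAT both genotypes on HFD were set against KO alone on chow. Whether the markers or the genotypes moved the direction was not tested. Liver against SAT gave 25 lower and 2 higher (backgrounds of 12.2% and 15.5%), and 5 higher and 0 lower without those libraries (5.15% and 2.56%). The latter fit lacked the same WT group. *Cycs* differed both between liver and SAT (-1.14 ± 0.22) and between liver and VAT (-0.97 ± 0.22, adjusted p = 0.000914). Without the SAT libraries with lymph node markers, *Cycs* was no longer called between liver and SAT. Liver against VAT gave 14 higher and 14 lower, where 18.8% and 14.8% of all genes were called, and 28 were called without the lymph node libraries too.

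The nuclear genes stood higher in liver than in fat relative to all genes. With TMM scaling, 91 of 97 members were higher in liver than in SAT and 5 lower (38% and 46.2% of all genes), with a median log2 fold change of 1.16 against -0.17 for all genes. Scaling by library size only moved the median of all genes by -1.09, and with it 44 members were higher and 31 lower, where 15.3% and 75.7% of all genes were. Relative to the median of all genes, the median of the members was 1.34 with either scaling. On the TPM scale the complexes stood at like levels in liver and fat, as given above. The 5 lower members were *Cox6a2* (-5.07 ± 0.92), *Cox4i2* (-4.88 ± 0.41), *Ndufa4l2* (-2.40 ± 0.22), *Atpif1* (-0.50 ± 0.13) and *Ndufaf5* (-0.27 ± 0.12), and *Atp5g1* stood furthest above it (2.72 ± 0.14). Liver against VAT gave 90 higher and 5 lower of 97 (37.3% and 46.1% of all genes, 83.4% called). With scaling by library size only, 42 were higher and 33 lower, where 14% and 78.2% of all genes were.

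SAT and VAT differed in few members, 6 higher in VAT and 7 lower of 97 (22.5% and 18% of all genes, 40.5% called). With scaling by library size only, 9 were higher and 9 lower (25.4% and 15.6% of all genes). *Atpif1* (0.78 ± 0.13), *Atp5g1* (0.52 ± 0.14) and *Atp5g2* (0.26 ± 0.07) were higher in VAT and *Sdha* (-0.22 ± 0.08) and *Cox4i2* (-0.79 ± 0.25) lower. Without the SAT libraries with lymph node markers, 3 were higher and 37 lower in VAT (20.9% and 13.7% of all genes). That fit held no WT SAT library on chow. Among WT libraries on chow only, where all SAT libraries carried those markers, 38 were higher and 1 lower in VAT (25.1% and 21.9% of all genes).

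For KO against WT, the values in fat are a description, since they were known when the set was proposed. In the 23 SAT libraries, with diet and sex as covariates, 10 of 97 members passed the FDR of 10% as higher in KO and 0 as lower, where 3.45% and 0.888% of all genes did (4.33% called). They were *Ndufb3* (0.58 ± 0.11), *Ndufa11* (0.43 ± 0.12), *Ndufs8* (0.37 ± 0.10) and *Ndufb7* (0.36 ± 0.09) of complex I, *Uqcrq* (0.49 ± 0.12) and *Uqcrc1* (0.37 ± 0.11) of complex III, *Cycs* (0.53 ± 0.13), *Atp5o* (0.48 ± 0.13) and *Atp5g3* (0.39 ± 0.10) of complex V, and the assembly factor *Ndufaf4* (0.30 ± 0.09). Complexes II and IV had none. *Sdha* stood at 0.13 ± 0.09, *Sdhb* at 0.17 ± 0.10, *Sdhc* at 0.31 ± 0.11 and *Sdhd* at 0.19 ± 0.08. The log2 fold change was above 0 for 91 of the 97, against 49.1% of all genes, with a median of 0.27 against -0.005. Most subunits moved together between libraries, as given below, so these are not 91 separate observations.

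The *Ndufb3* values show how the groups lay. In males, KO and WT did not overlap on either diet (the values are given above). In females on HFD it stood at 30.2, 33.7 and 28.6 CPM in WT and 51.0, 25.3, 40.3 and 44.6 CPM in KO, where KO replicate 2, the library with lymph node markers, was the lowest of the 7. *Cycs* in females stood at 23.3, 28.3 and 26.1 CPM in WT and 37.2, 16.8, 29.3 and 29.6 CPM in KO, with the same library lowest. *Cycs* lies on the chromosome of *Fam13a* (6, from 50562563 to 50566538), 8.37 megabases from it, and is the nearest of the 5 members on it.

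**Figure D5:**
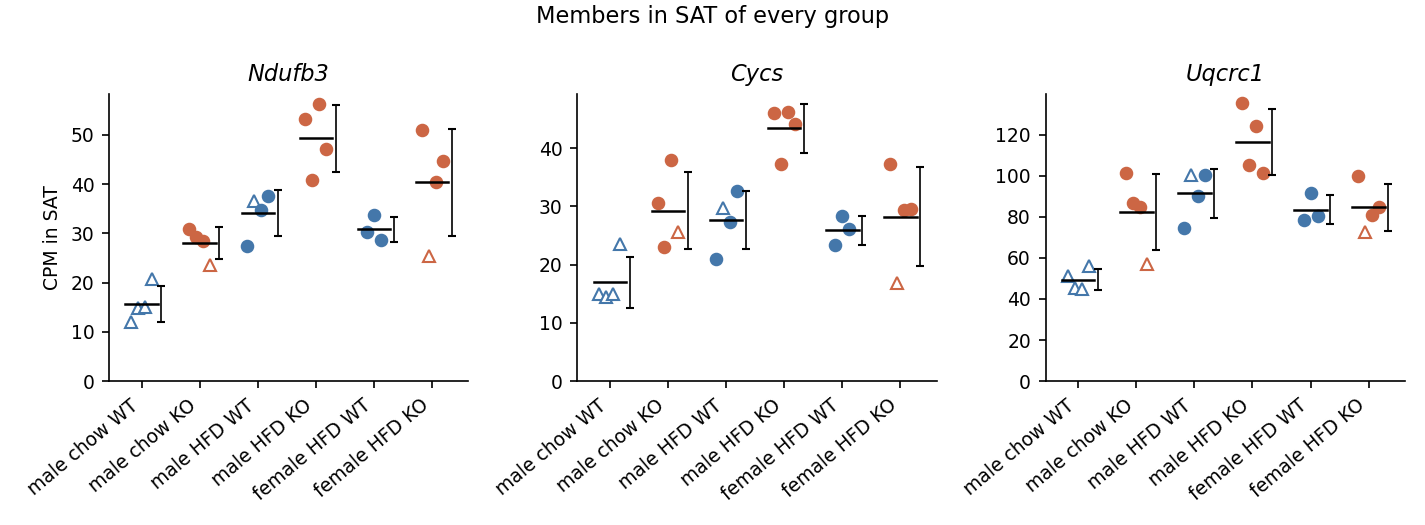
CPM (vertical axes, from 0) of *Ndufb3*, *Cycs* and *Uqcrc1* is plotted for the 23 SAT libraries by sex, diet and genotype, in blue for WT and orange for KO, with the group mean (line) and SD (bar beside it), and open triangles for the 7 libraries with lymph node markers. *Ndufb3* lies higher in KO than in WT males on both diets with no overlap, and in females the lowest library, at 25.3 CPM, is a KO library with those markers.

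Several measures moved with genotype in SAT. Lymph node scores were 4.15 to 6.01 in WT and -1.17 to 5.46 in KO males on chow, adipocyte scores 8.0 to 9.05 and 8.96 to 10.2, and the median ribosomal RNA share was 16.4% in WT and 1.63% in KO on chow. Without the 7 libraries with lymph node markers, 4 members passed (*Ndufb3*, *Ndufs4*, *Cycs* and *Atp5g3*), all higher, where 2.84% of all genes were higher. No WT library on chow was left there, so that fit compared the genotypes on HFD only. With the adipocyte score as a covariate 2 members passed as higher (*Ndufb3* and *Uqcrq*), where 1.2% of all genes did. In males only, 63 of 96 were higher, against 7.86% of all genes, and with DESeq2's test 36 of 97, against 6.19%. Leaving out 1 library at a time gave between 2 and 63 calls. The most came without female KO replicate 2 (9.64% of all genes higher) and the fewest without male WT replicate 2 on chow (1.46%). In VAT, 0 of 97 members passed, where 0% of all genes were higher and 0.00527% lower. There the median log2 fold change was 0.12 and 18 members had an unadjusted p under 0.05 (8.42% of all genes), and *Cycs* stood at 0.32 ± 0.13. The difference of the KO effect between depots was called for 0 members (0.0101% of all genes), with 9 at an unadjusted p under 0.05 (7.43% of all genes).

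In liver, which did not enter the choice of the set, 0 of 94 members differed between KO and WT, as did 0% of all genes. There 22 members had an unadjusted p under 0.05 (9.78% of all genes), DESeq2's test called 1, and the median log2 fold change was 0.11. *Cycs* stood at 0.13 ± 0.13 in liver. The difference of the KO effect between diets was called for 0 members in SAT, VAT and liver by edgeR's test (0.0173%, 0.00577% and 0% of all genes). At an unadjusted p under 0.05 there were 5, 7 and 2 (17.4%, 9.16% and 6.41% of all genes). Without male KO replicate 4 on chow, a library with lymph node markers, 15 of 97 members were called lower and 2 higher in SAT, where 16.3% of all genes were lower and 13% higher in the same fit, against 0.0116% and 0.00578% with all libraries.

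Females were compared with males on HFD, the only diet that both had. In SAT, 0 members were higher and 11 lower in females of 97, where 13.5% of all genes were higher and 13.1% lower. The hypoxia-inducible forms led: *Ndufa4l2* stood at 1.32 to 3.18 CPM in the 7 female libraries and 3.65 to 5.90 CPM in the 8 male libraries (-1.19 ± 0.16, adjusted p = 8.41e-05), with no overlap. *Cox4i2* stood at 0.259 to 0.836 CPM in females and 0.822 to 2.35 CPM in males, overlapping at 1 library of each (-1.39 ± 0.28). The other called members moved less, for example *Cycs* (-0.38 ± 0.15), *Atp5o* (-0.34 ± 0.14), *Uqcrc1* (-0.31 ± 0.10) and *Ndufb7* (-0.28 ± 0.09). The 4 mammary epithelium markers, at 4.15 to 5.45 in female SAT against -3.11 to 0.915 in male SAT on HFD, moved with sex, and their part was not tested.

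In VAT, 19 members were higher and 4 lower in females, where 19.5% of all genes were higher and 20% lower. With scaling by library size only, 7 were higher and 9 lower, where 12.2% and 27.4% of all genes were. *Ndufab1*, the acyl carrier protein of mitochondria and a complex I subunit, stood at 18.2 to 23.7 CPM in the 7 female and 10.3 to 16.8 CPM in the 8 male libraries, with no overlap (0.56 ± 0.11, adjusted p = 0.00118). *Ndufv1* (0.44 ± 0.12), *Sdha* (0.40 ± 0.12), *Uqcr11* (0.46 ± 0.14), *Cox8a* (0.41 ± 0.14) and *Uqcc3* (0.40 ± 0.09) were higher too. *Atpif1* was lower in females (-0.96 ± 0.13, adjusted p = 5.79e-05), as were *Atp5g1* (-0.33 ± 0.10) and *Cox7a2l* (-0.28 ± 0.09), a factor that joins complexes III and IV. This comparison and that of the diets in male VAT share the male HFD libraries. In the diet comparison *Ndufab1* stood at -0.37, *Sdha* at -0.33, *Uqcc3* at -0.46 and *Atpif1* at 1.04. Macrophage scores were 4.52 to 6.18 in female VAT and 6.98 to 8.84 in male VAT on HFD. With the macrophage score as a covariate 0 members were called, and of all genes 1 was higher and 6 lower. With the adipocyte score 0 members were called, and of all genes 4 were higher and 19 lower.

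Genes outside the set give its setting. Of 16 transcriptional regulators of mitochondrial genes, 15 were tested in SAT, where 1 was higher on HFD (*Esrrg*, 0.99 ± 0.30) and 10 lower, among them the coactivators *Ppargc1b* (-1.27 ± 0.21) and *Ppargc1a* (-0.85 ± 0.19), *Myc* (-0.98 ± 0.17) and *Nrf1* (-0.56 ± 0.10), while most subunits were higher. Without the SAT libraries with lymph node markers, 0 of these 15 were higher and 7 lower, with *Ppargc1b* at -1.58 ± 0.35 and *Ppargc1a* at -1.20 ± 0.28, and neither *Esrrg* nor *Myc* passed. In VAT 1 was higher and 6 lower of 15, and in liver 4 were higher and 2 lower of 16, with *Ppargc1a* lower (-0.61 ± 0.18) and *Esrrg* (1.39 ± 0.23) and *Ppara* (0.41 ± 0.07) higher. Of the 13 mitochondrially encoded subunits, 7 were tested. On HFD 1 was higher in SAT (*mt-Nd1*, 0.43 ± 0.13), 2 were lower in VAT (*mt-Nd5* and *mt-Cytb*), and in liver 1 was higher (*mt-Nd6*) and 1 lower (*mt-Nd2*). Of 37 assembly factors outside these symbols, 36 were tested, and on HFD 12 were higher and 2 lower in SAT, 6 and 6 in VAT, and 10 and 0 in liver. Of 21 genes that follow mitochondrial mass, such as citrate synthase and porins, 10 were higher and 1 lower in SAT, 4 and 0 in VAT, and 3 and 4 in liver.

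Most subunits moved with the median of all subunits between libraries of the same group. The deviation of each member from its group mean (log2 CPM) was correlated with that of this median over the libraries of a tissue, all of which share the same scaling. The median r over complex I was 0.90 in SAT (23 libraries), 0.78 in VAT (23) and 0.91 in liver (16), and over complex V 0.91, 0.79 and 0.92. Over complex II it was 0.91, 0.86 and 0.88, and over complex III 0.89, 0.89 and 0.89. Complex IV had medians of 0.86, 0.67 and 0.93, with 15, 14 and 14 of its 17 members above 0 and the lowest at -0.20, -0.22 and -0.13. Those below 0 were *Cox7b2* and *Cox8c* in every tissue, *Ndufa4l2* in VAT and *Cox6a2* in liver. *Cox7b2*, *Cox8c* and *Cox6a2* had 0 counts in 56, 55 and 17 libraries, so their r says little. The assembly and regulatory genes were looser, at 0.49, 0.26 and 0.62, and *Dmac2*, an assembly factor, went against the subunits in SAT (-0.45). *Cycs* stood at 0.72 in SAT, 0.85 in VAT and 0.40 in liver. These are descriptions over libraries and were not tested.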

How the data were processed

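RNA-seq libraries had been prepared with a stranded kit and aligned by the authors with STAR (2.5.3a and build mm10 per the labels), and the authors deposited 1 table of raw read counts per gene. Which strand column of STAR was kept is not given in the sources used here. Groups came from the labels. Replicate numbers follow accession order and pair nothing. Nothing states that replicates were separate animals, so p-values measure the spread between libraries.

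Counts were fitted with edgeR 4.0.16 (R 4.3.3, quasi-likelihood test, legacy form, TMM scaling, filterByExpr), with Benjamini-Hochberg adjustment over all genes tested and an FDR of 10%. Standard errors were the log2 fold change divided by the root of F. CPM used TMM sizes, and a prior count of 2 was added before log2. For TPM, counts were divided by merged exon length (GENCODE M21, GRCm38) over protein-coding genes. Scores are mean log2 CPM of a marker list. Symbols were found for 99.1% of the genes. Of the members, 33 overlap a gene on the other strand and 10 a gene on the same strand, and their counts are less certain. Total counts limit the precision. The fits were tested on simulated counts with 200 changed genes. Of genes changed 1.3-fold, 8.96% were called in the right direction for diet in SAT and 14.9% for genotype in SAT. It was 5.97% for sex in VAT and 32.8% for liver against SAT. Of genes changed 2-fold, 66.7%, 59.1%, 60.6% and 57.6% were, in the same order. A member that was not called may thus still differ.

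The members, gene lists and tests were chosen with earlier results of these data known. Named were, per comparison, up to 3 called members of each class with the smallest p, all of complex II, *Cycs*, paralog sets, members that went against their class and the leading genes of other lists. Alternatives were DESeq2 (1.42.0) and its size factors, the bias-corrected test, no filter on low counts, an FDR of 5%, marker covariates, subsets of libraries and each library left out. Chosen after the data were seen were scaling by library size only, the lymph node and macrophage covariates, KO libraries only, and leaving out libraries with lymph node, epididymis or testis, or muscle markers or much ribosomal RNA. Hidden factors and RNA quality, covariates in the study's own fit, were left out.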

Additional observations from a re-analysis of the deposited data

Results flagged for a closer look

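In 84 sets of 4 libraries (1 gene or the median of the subunits in 1 group), a single library far from the rest was looked for. In 3 sets it was found, where chance alone flags about 5% of such sets. *Cycs* stood at 23.5 CPM in male WT SAT replicate 4 on chow, against 14.5 to 15 CPM in the other 3. That library also had the lowest lymph node score of its group, 4.15. *Atpif1* stood at 18.6 CPM in male KO SAT replicate 2 on HFD, against 15.5 to 16 CPM in the other 3. *Uqcc3* stood at 9.18 CPM in female KO VAT replicate 3, against 8.16 to 8.24 CPM in the other 3.

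The diet effect differed between tissues by the test of the difference itself for 7 named genes. Between VAT and SAT these were *Ndufv1* (-0.77), *Ndufb7* (-0.64), *Cyc1* (-0.59), *Cox6a1* (-0.82), *Cox8a* (-0.85) and *Atp5b* (-0.77), all lower in VAT (log2 scale). Without the SAT libraries with lymph node markers none of these 6 passed, in a fit that held no WT SAT library on chow. The diet effect on *Cycs* was lower in liver than in SAT (-1.14) and than in VAT (-0.97). Without the lymph node libraries only its difference between liver and VAT passed.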

How the results depend on the processing

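No paired analysis was possible because replicate numbers were given in accession order and the labels do not link the tissues of 1 mouse. The numbers below are members called, without the shares of all genes in the same fits, and the cause of each change was not tested. In the diet comparison of SAT (68 called), the lymph node covariate gave 25, leaving out the lymph node libraries 10 and KO libraries only 10. In VAT (23), scaling by library size gave 36, the muscle covariate 14, the macrophage covariate 0 and WT libraries only 10, and in liver (47) WT libraries only gave 28. Between VAT and SAT (13), leaving out the lymph node libraries gave 40, leaving out the epididymis or testis libraries 7, the muscle covariate 7 and WT on chow only 39. The diet difference between VAT and SAT (38) gave 25 at an FDR of 5%, 23 with no filter, 16 without the other flow cell and 2 without the lymph node libraries. That between liver and SAT (27) gave 41 with DESeq2's test and 5 without the lymph node libraries, and that between liver and VAT (28) gave 18 at an FDR of 5% and 18 with no filter. The genotype comparison of SAT (10) gave 4 at an FDR of 5%, 36 with DESeq2's test, 16 with the bias-corrected test, 2 with the adipocyte covariate, 51 with the muscle covariate, 4 without the other flow cell, 4 without the lymph node libraries and 63 in males only, and that of liver (0) gave 1 with DESeq2's test. The sex comparison of SAT (11) gave 4 at an FDR of 5%, 5 with no filter, 71 with the adipocyte covariate, 18 with the lymph node covariate, 4 without the other flow cell, 5 without the lymph node libraries and 7 without the muscle libraries, and that of VAT (23) gave 0, 3 and 0 with the adipocyte, muscle and macrophage covariates. The genotype-by-diet test of SAT could not be fitted without the lymph node libraries, since no WT library on chow was left. The diet, genotype and tissue fits without those libraries held no WT SAT library on chow either.

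Leaving out 1 library at a time gave 62 to 77 calls for diet in SAT, 16 to 28 in VAT and 42 to 52 in liver. It gave 21 to 43 for the diet difference between VAT and SAT and 17 to 36 between liver and SAT (both lowest without male KO SAT replicate 4 on chow), 2 to 63 for genotype in SAT (over 1.5 times from the count in 13 of 23 omissions), and 0 to 17 for genotype by diet in SAT (17 without that same library). It gave 4 to 20 for sex in SAT, where 13 of 15 omissions moved the count by over 1.5 times, and 13 to 34 for sex in VAT, lowest without female WT replicate 1. For diet by tissue between VAT and SAT 12 of 48 omissions moved it that far.

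Values that changed sign follow. In VAT on HFD, *Sdha* stood at 0.11 with the adipocyte covariate. With the macrophage covariate *Ndufs8* stood at -0.019, *Ndufb3* -0.26, *Sdhd* -0.053, *Cycs* -0.26, *Cox7c* -0.30, *Atp5e* -0.030 and *Atp5o* -0.16. Between liver and SAT, scaling by library size, which moved the median of all genes by -1.09, gave *Cox4i1* -0.34, *Cox6a1* -0.26 and *Cox8a* -0.87, and leaving out the lymph node libraries gave *Cox8a* -0.074. Between the sexes in VAT, the adipocyte covariate gave *Ndufab1* -0.094, *Ndufv1* -0.21, *Sdha* -0.28, *Uqcr11* -0.25 and *Cox8a* -0.38, and the macrophage covariate gave *Atp5g1* 0.15. Over the settings other than single omissions, the values of named genes that kept their direction and call were 383 of 435 for diet in SAT, 145 of 195 in VAT and 193 of 200 in liver, 144 of 182 for genotype in SAT, 62 of 72 for sex in SAT, 84 of 108 in VAT, and 121 of 131 between liver and SAT.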
